A study of Arabidopsis thaliana with 42 samples.

Results

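The plastid genome of Arabidopsis is the small chromosome kept inside the chloroplast, and its loci are the 88 of 27655 in the expression table whose identifier starts with ATCG. Each was represented by 1 transcript, and 86 passed the filter on low values, which asked for at least 10 in at least 3 libraries. The remaining pair, ATCG00870 and ATCG01270, averaged 3.40 normalized counts per library and were not tested. The table lists 7 pairs of plastid loci with identical values in every column, so the 88 loci carry 81 distinct sets of values. They come from 42 libraries of stranded mRNA sequencing, in 14 groups of 3, made from whole 10-day-old seedlings. Wild-type seedlings (Columbia-0) and the mutant upf, which is upf3-1upf1-5 in the same background, were compared. The labels call upf NMD-compromised: it is impaired in nonsense-mediated decay, which degrades cytosolic mRNA whose reading frame stops too soon. Samples of either genotype were taken before heat (0 min) and after 15, 30, 45 and 90 min at 44 °C in light, in liquid medium. Wild-type seedlings were also heated for 15, 30, 45 and 90 min in medium with cycloheximide (CHX), which stops ribosomes of the cytosol, at 10 μg/L per the labels. No group was kept unheated after 0 min and none received CHX without heat, so heat cannot be told apart from time since 0 min, and the CHX effect is that in heated seedlings. Each replicate pooled several plants.

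The plastid genome encodes part of the photosynthetic complexes, the large subunit of Rubisco, an NADH dehydrogenase-like complex, part of the plastid ribosome, a protease subunit and an RNA polymerase, while most plastid proteins are encoded in the nucleus. Plastid genes are transcribed by that polymerase and by phage-type polymerases imported from the cytosol, and the long first transcripts are cut and trimmed. Plastid ribosomes are of the bacterial type, which CHX does not bind. Nonsense-mediated decay acts on RNA in the cytosol. In plastids a poly(A) tail marks RNA for decay, unlike the tail of a nuclear mRNA. The sources used here do not give how mRNA was selected for these libraries, so a level below is that of plastid RNA carried through mRNA selection, not of all plastid RNA. Fewer plastids or fewer green cells cannot be told apart from less RNA per plastid in whole seedlings.

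Gene names are used for 6 of the plastid identifiers, from notes in the TAIR10.1 reference annotation and sequence comparison. They are rpl20 (ATCG00660) and rpl2 (ATCG01310), which encode proteins of the plastid ribosome; ndhJ (ATCG00420) and ndhK (ATCG00430), subunits of the NADH dehydrogenase-like complex that carries electrons around photosystem I; cemA (ATCG00530), an envelope membrane protein; and clpP (ATCG00670), the proteolytic subunit of the plastid Clp protease. In the TAIR10.1 plastid genome ndhJ lies at 48677 to 49153, ndhK at 49257 to 49934, rpl20 at 68512 to 68865 and clpP at 69910 to 71882, all on the minus strand. The gene cemA is on the plus strand at 60741 to 61430. There are copies of rpl2 at 84337 to 85843 on the minus strand and at 152806 to 154312 on the plus strand, in the inverted repeat, and ATCG00830 and ATCG01310 had the same value in every column. ATCG00430 is listed in the reference as photosystem II reaction center protein G, and its relative in the nucleus matched ndhK best. The link of ATCG00420 to ndhJ rests on a nuclear pseudogene, AT4G13285 on chromosome 4, which the annotation calls a pseudogene of that locus. Its sequence is shown here beside the ndhJ stretch that it matches, because that match is the evidence for the name. Both are from RefSeq (TAIR10.1), read 5′ to 3′, and capitals mark bases that differ between them or have no counterpart in the other. The ndhJ stretch is Pltd:48893-49058 on the minus strand and the pseudogene stretch is chr4:7738696-7738864 on the plus strand.
ndhJ, plastid: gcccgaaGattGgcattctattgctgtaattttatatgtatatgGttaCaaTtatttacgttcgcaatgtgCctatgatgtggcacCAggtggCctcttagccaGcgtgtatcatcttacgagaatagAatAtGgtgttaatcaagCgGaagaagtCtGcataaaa
AT4G13285: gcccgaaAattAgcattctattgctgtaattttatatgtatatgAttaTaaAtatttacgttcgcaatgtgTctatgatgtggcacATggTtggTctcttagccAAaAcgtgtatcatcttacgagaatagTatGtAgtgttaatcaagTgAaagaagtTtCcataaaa
The aligned stretches share 149 bases, over 166 bases of the plastid gene and 169 of the pseudogene. No nuclear match of at least 95% identity to ndhJ exceeded 45 bases, and that to AT4G13285 is below this identity. The longest such match of rpl2 was 59 bases, on chromosome 3, and the other 4 named genes had none.

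The identifiers of these 6 loci run in the order of the genes along the genome. In 3 of the stretches between them the table has as many identifiers as the reference has protein-coding genes, which gives the content of a stretch but not the name of any 1 identifier in it. There are 7 identifiers between ndhK and cemA, where the reference has ndhC, atpE, atpB, rbcL, accD, psaI and ycf4. Between cemA and rpl20 are 10, for petA, psbJ, psbL, psbF, psbE, petL, petG, psaJ, rpl33 and rps18. Between clpP and rpl2 are 15, for genes of photosystem II, the cytochrome b6f complex, the plastid RNA polymerase and plastid ribosomal proteins. The counts differ for the 24 identifiers before ndhJ and the 26 from rpl2 to the end, which include that copy of rpl2. They also differ between rpl20 and clpP, where the reference has rps12 and the table has no identifier. Other identifiers are given as listed, without a name.

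Plastid loci took a small part of every library, and that part shrank late in the heat in wild type. Their share of all normalized counts at 0 min was 1.60%, 1.56% and 0.904% in the 3 wild-type libraries, and at 90 min 0.612%, 0.369% and 0.279%. Every 90 min value was below every 0 min value. At 15 min the share was 1.63%, 1.13% and 0.969%, at 30 min 1.52%, 1.08% and 0.898%, and at 45 min 1.32%, 0.769% and 0.443%, and each of these groups overlapped with 0 min. In upf the share was between 1.04% and 1.37% at 0 min, 1.47%, 1.18% and 0.693% at 15 min, 1.75%, 1.28% and 0.452% at 30 min, 1.04%, 1.05% and 1.27% at 45 min, and 1.08%, 0.537% and 0.607% at 90 min, and each later group overlapped with 0 min. With CHX it was 1.42%, 0.736% and 0.565% at 15 min, 0.595%, 0.637% and 0.403% at 30 min, 0.498%, 0.541% and 0.201% at 45 min, and 0.441%, 0.321% and 0.246% at 90 min. At 30 min all 3 CHX shares were below all 3 shares of heat alone, and at the other times they overlapped. The summed plastid counts at 45 min did not overlap, with 345392, 188892 and 137147 in heat alone and 100656, 111854 and 47317 with CHX. With 3 libraries against 3, an exact two-sided permutation test cannot go below 0.10, so none was run on the shares. Mitochondrial loci went the other way. Their share rose from about 0.02% in each library at 0 min to 0.363%, 0.315% and 0.294% in wild type at 90 min.

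**Figure D1:**
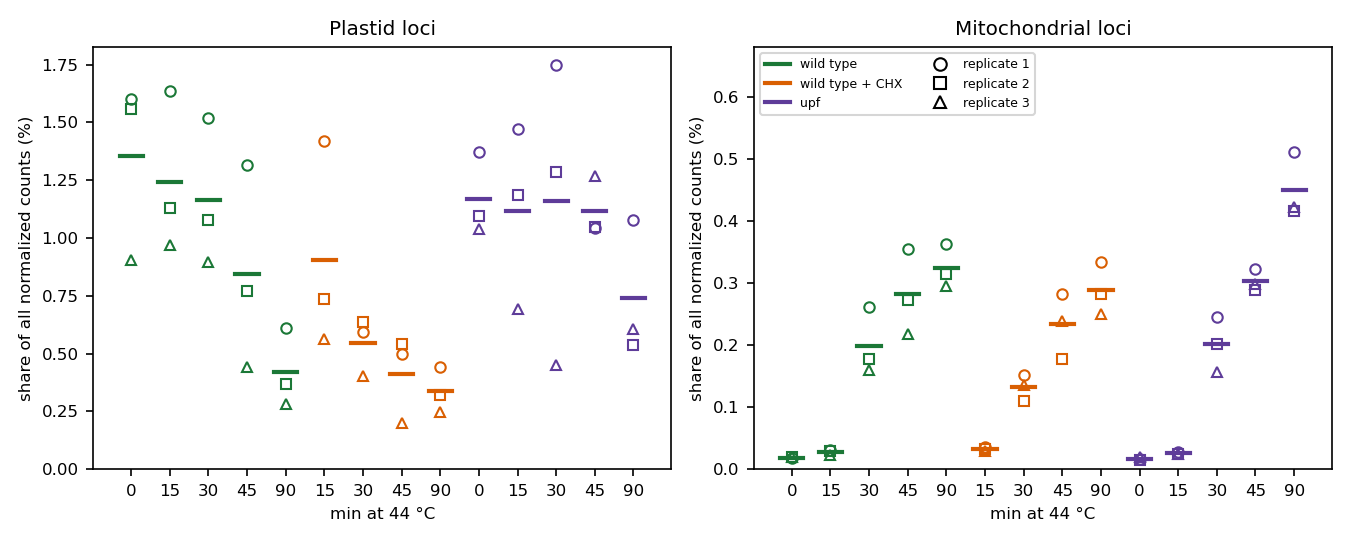
Share of all normalized counts (%) taken by the plastid loci (left) and the mitochondrial loci (right), by minutes at 44 °C. Each symbol is 1 library (circle replicate 1, square replicate 2, triangle replicate 3), each line the mean of 3, and colours give wild type, wild type with CHX and upf. The wild-type plastid share at 90 min lies between 0.279% and 0.612%, below the 0.904% to 1.60% at 0 min, while the mitochondrial share is near 0 at 0 min and highest at 90 min in wild type and upf.

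Libraries of 1 group differed widely in plastid RNA. The median SD of a plastid locus on the log2 scale within groups was 0.79, against 0.41 for mitochondrial loci and 0.20 for other loci of like level. The library numbered 1 had the highest plastid share in 11 of 14 groups and the library numbered 3 the lowest in 12 of 14. In the third wild-type library at 0 min none of the 86 tested loci was above its group mean, and in the first at 30 min 83 were. Library 3 of upf at 45 min stood apart: it had 52951 normalized counts of ATCG00020, while the other libraries lay between 1044.5 and 8375.5. The count of loci called higher in upf at 45 min on the deposited scale, clpP and ATCG00510 are given with and without it. Other values of upf at 45 min include it. Depth, estimated from the steps in the values, was 20.4 to 76.4 M reads per library (M is 1e6), with a median of 43.8 M.

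Levels were uneven. ATCG00480 alone held 29.5% of the plastid normalized counts on average over libraries and ATCG00470 held 7.54%. In wild type at 0 min ATCG00480 had 70171, 73978 and 40662 normalized counts, and at 90 min 38515, 33842.5 and 29358.5, a log2 change of -0.82 ± 0.33 (SE) that was under the 2-fold limit of a call. ATCG01000 was listed at 0 in 22 of the 42 libraries and reached 1078.5 in another. Values are not per length, so they do not rank the genes by RNA molecules.

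In wild type no plastid locus was called up to 45 min on the deposited scale (19 were lower at 45 min with libraries set to equal totals), and many were lower at 90 min, among them rpl2, rpl20 and 10 of the 15 loci between clpP and rpl2. A locus was called when limma, run on all 20747 loci tested, gave an adjusted p below 0.05 and the levels differed 2-fold or more. At 90 min 35 of 86 plastid loci were called lower and 0 higher, or 32 of 80 distinct sets of values, where 23.6% of all loci were called lower and 12.2% higher. None of the 86 had an unadjusted p under 0.05 and a higher level, and the authors' deposited table also calls none of the 88 higher, and 45 lower. The median log2 change of the plastid loci was -1.22, against -0.14 for all loci. At 15, 30 and 45 min limma called 0 plastid loci, where 8.92%, 11.5% and 12.7% of all loci were called higher and 5.27%, 16.8% and 20.8% lower. At an unadjusted p under 0.05 there were 0, 2 and 2 plastid loci at these times, and the authors' deposited table calls 0 and 0 at 15 and 30 min, and 1 higher and 1 lower at 45 min. By contrast 104 of 107 mitochondrial loci were called higher at 30 min and 102 at 90 min.

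Both named genes of plastid ribosomal proteins were called lower. For rpl2 the normalized counts were 9681, 10657.5 and 4981.5 at 0 min and 3040.5, 2525 and 2179.5 at 90 min, without overlap, and the log2 change was -1.65 ± 0.39 (SE). For rpl20 they were 114, 151 and 82 at 0 min and 66, 40.5 and 20.5 at 90 min, with a log2 change of -1.53 ± 0.62 (SE). In limma with Benjamini-Hochberg adjustment rpl20 (adjusted p = 0.030) lost its call without any 1 of 4 libraries: with 0 min library 1 or 2 left out, or 90 min library 2 or 3, the adjusted p was 0.061, 0.100, 0.053 or 0.164. The 15 loci between clpP and rpl2 had summed normalized counts of 47676, 43576 and 22912.5 at 0 min, 42575, 21488 and 11995.5 at 45 min and 11242, 5702 and 3927 at 90 min. The libraries at 90 min were all below those at 0 and 45 min, and those of 0 and 45 min overlapped.

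The named loci of other roles did not reach a call at 90 min. For ndhJ the normalized counts were 2476, 2576.5 and 1716.5 at 0 min and 1635.5, 1337.5 and 823 at 90 min, with a log2 change of -0.87 ± 0.35 (SE). For ndhK they were 3813.5, 3912 and 2653.5 at 0 min and 2416, 2121 and 1798.5 at 90 min, with a log2 change of -0.70 ± 0.31 (SE). In both the groups did not overlap, and the adjusted p in limma was 0.029 for ndhJ and 0.046 for ndhK, but the change was under 2-fold. For clpP the values were 598.5, 770 and 547 at 0 min and 496, 411.5 and 270 at 90 min, with a log2 change of -0.73 ± 0.37 (SE) and an adjusted p of 0.081 in limma. For cemA they were 295, 277.5 and 233 at 0 min and 159.5, 66.5 and 41 at 90 min. Its log2 change was -1.80 ± 0.82 (SE), larger than that of rpl20, and its adjusted p in limma was 0.052.

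The share of loci called lower differed between stretches of identifiers, a description with no test, where 23.6% of all loci were called lower. In the stretch from ndhK to cemA, whose genes encode ATP synthase subunits, the Rubisco large subunit and others, 0 of 7 loci were called lower by limma at 90 min (median log2 change -0.81). From cemA to rpl20, mostly genes of photosystem II and the cytochrome b6f complex, 2 of 10 were called lower (median -0.73). From clpP to rpl2, where genes of both those complexes are followed by genes of ribosomal proteins, 10 of 15 were called lower (median -2.55), with log2 changes from -3.47 to 0.52. Before ndhJ 9 of 24 were called lower (median -1.05), and from rpl2 to the end 12 of 24 tested (median -1.63). Within the last of these, 7 of the 9 loci from ATCG01050 to ATCG01130 were called lower (median -2.56), so a fall of that size was not confined to the stretch from clpP to rpl2. The largest decrease was at ATCG00650, the last identifier before rpl20, which went from 345.5, 387 and 234.5 to 57, 20.5 and 13.5, 12.1-fold lower (log2 change -3.59 ± 0.86 SE). The next was ATCG00800, between clpP and rpl2, from 9917, 7634.5 and 4383.5 to 1614, 508 and 296 (log2 change -3.47 ± 0.73 SE). Level did not go with the size of the change: across 80 distinct sets of values, which share libraries, Spearman's rho between mean level and log2 change was -0.03.

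**Figure D2:**
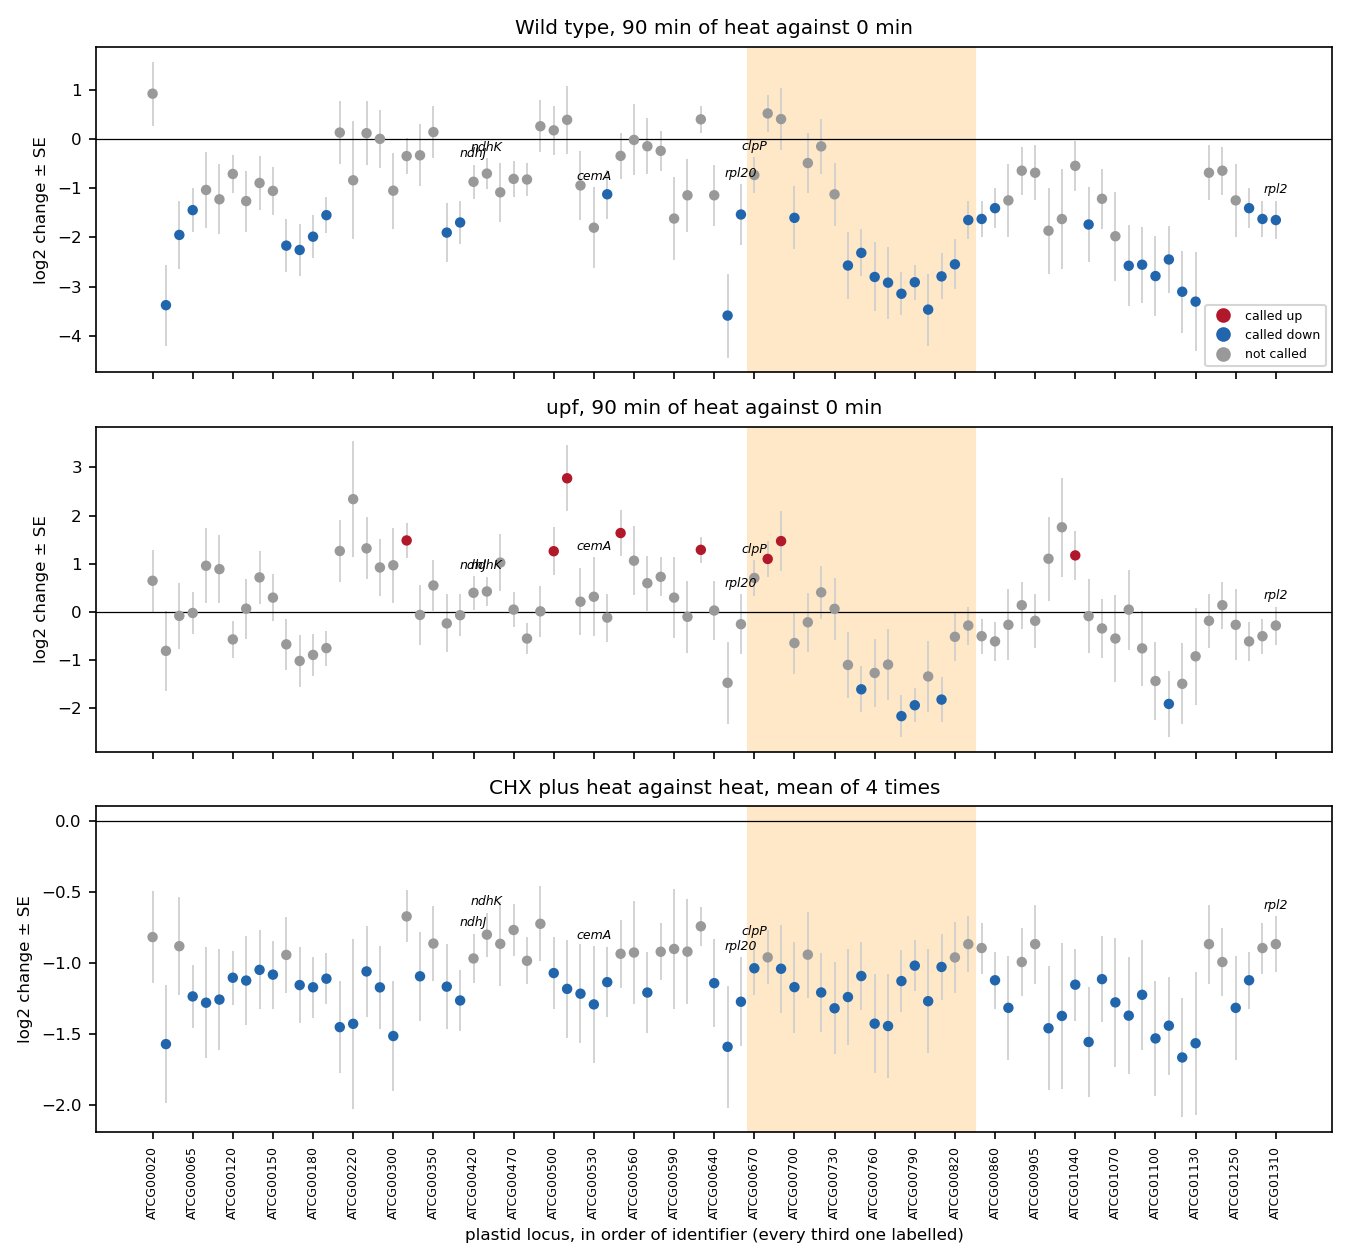
Log2 change with its SE for each tested plastid locus except ATCG01000, in order of identifier, for wild type at 90 min against 0 min (top), upf at 90 min against 0 min (middle) and CHX plus heat against heat over the 4 times (bottom). Red marks loci called higher, blue loci called lower and grey loci not called. The shaded span runs from clpP to the first copy of rpl2, and in its right-hand part all loci are blue in the top panel. The italic names sit above the 6 named loci.

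The decrease at 90 min depends on the scale of the libraries. In the deposited values the median locus of all moved by -0.14 (log2) at 90 min, and with libraries set to equal totals by -0.91, which raised the plastid loci called lower to 68. With the plastid loci set to equal totals in every library, 20 were called lower and 7 higher, while rpl2 (log2 change -0.70) and rpl20 (-0.61) lost their calls and ndhJ, ndhK and clpP changed sign to 0.08, 0.24 and 0.21. Markers of shoot and root were measured beside it. Of 8 nuclear genes of green tissue none was called in wild type at 90 min, and their summed level went from 637710 to 763480 at 0 min to 773720 to 1084100 at 90 min. Of 10 root genes 6 were called lower and 1 higher, and their sum went from 31305 to 42316 down to 6520 to 7491. None of them had a mean of 0 in wild type at 0 or 90 min. Their part in the plastid result was not tested.

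In upf, on the deposited scale, 20 plastid loci were called higher at 45 min, and at 90 min 8 were higher and 5 lower. These counts depend on the scale: with libraries set to equal totals there were 2 higher and 2 lower at 45 min and 1 higher and 23 lower at 90 min. With equal plastid totals there were 6 higher and 3 lower at 45 min and 12 higher and 10 lower at 90 min. The plastid share of the library at 45 min lay within its range at 0 min. At 15 and 30 min limma called 0 of 86 plastid loci, where 8.03% and 10.7% of all loci were called higher and 4.65% and 13.7% lower. There were 0 and 2 at an unadjusted p under 0.05, and the authors' deposited table calls 0 at 15 min and 5 higher at 30 min. At 45 min 20 loci were called higher and 0 lower, where 11.4% of all loci were called higher and 17.7% lower. No plastid locus had an unadjusted p under 0.05 and a lower level, and the authors' deposited table calls 42 higher and 1 lower. Without library 3, the one that stood apart, the 45 min count was 6 higher, and without upf library 1 at 0 min it was 12. The count of 8 higher at 90 min became 4 without library 1 of that time and 5 without library 2 of 0 min. At 90 min 8 were called higher and 5 lower, where 11% of all loci were called higher and 20.1% lower. The median log2 change of the plastid loci was 0.86 at 45 min and -0.08 at 90 min.

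Of the 5 loci called lower in upf at 90 min, 1 lies after rpl2. The other 4 were among the 15 between clpP and rpl2, where 2 others were called higher. Of all loci 20.1% were called lower and 11% higher, so the counts from clpP to rpl2 were near the general shares. ATCG00780 fell by 2.17 and ATCG00790 by 1.94 on the log2 scale. The summed counts of that stretch were 34383.5, 35433 and 29706.5 at 0 min and 20234.5, 9104.5 and 11358 at 90 min, without overlap. The 6 named loci were not called at 90 min: log2 changes were -0.28 for rpl2, -0.26 for rpl20, 0.40 for ndhJ, 0.42 for ndhK, 0.31 for cemA and 0.70 for clpP. At 45 min clpP was called higher, from 339, 428 and 350.5 at 0 min to 975, 781.5 and 1093, without overlap (log2 change 1.34 ± 0.37 SE), and the first and second of these libraries alone are also above all of 0 min.

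Among the loci that rose in upf, ATCG00510, in the stretch from ndhK to cemA, changed most. It had 4.5, 20.5 and 19 normalized counts at 0 min, 93, 94 and 187 at 45 min and 88.5, 96 and 86.5 at 90 min. The groups did not overlap, and the log2 change was 3.16 ± 0.69 (SE) at 45 min and 2.78 ± 0.69 (SE) at 90 min, resting on low counts at 0 min. Without library 3 the change at 45 min was 2.83. In wild type the same locus had 30, 28 and 19 at 0 min and 62, 34 and 17.5 at 90 min, and was not called. ATCG00330, which lies before ndhJ, had 395, 262.5 and 340.5 in upf at 0 min, 1714.5, 665 and 1201.5 at 45 min and 1168.5, 915 and 726.5 at 90 min, with a log2 change of 1.48 ± 0.37 (SE) at 90 min.

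The difference between the heat responses of the genotypes was tested directly at 90 min. ATCG00330 was the 1 plastid locus called, with a response higher in upf by 1.83 ± 0.52 (log2, SE; adjusted p = 0.038 in limma), where 1.9% of all loci were called higher and 0.468% lower. In wild type it had 261, 531 and 311 at 0 min and 265.5, 288.5 and 274.5 at 90 min. Its call was lost, with an adjusted p from 0.050 to 0.154, without any 1 of 9 libraries: wild-type library 2 of 0 min, each wild-type library of 90 min, each upf library of 0 min, and upf library 1 or 2 of 90 min. It was also lost without a filter (adjusted p = 0.053) and in the first lane alone (adjusted p = 0.060). The estimated difference was above 0 for 83 of the 86 loci, with a median of 1.18 against -0.01 for all loci, and 23 loci had an unadjusted p under 0.05, all higher. Both responses are measured from 0 min, where the median log2 difference of the plastid loci, upf against wild type, was -0.56 and none was called. The number of a library, with which the plastid share went, was not a term of this fit. For the named loci the difference was 1.36 for rpl2, 1.28 for rpl20, 1.26 for ndhJ, 1.12 for ndhK, 2.12 for cemA and 1.43 for clpP, and the lowest adjusted p among them was 0.145, for clpP.

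**Figure D3:**
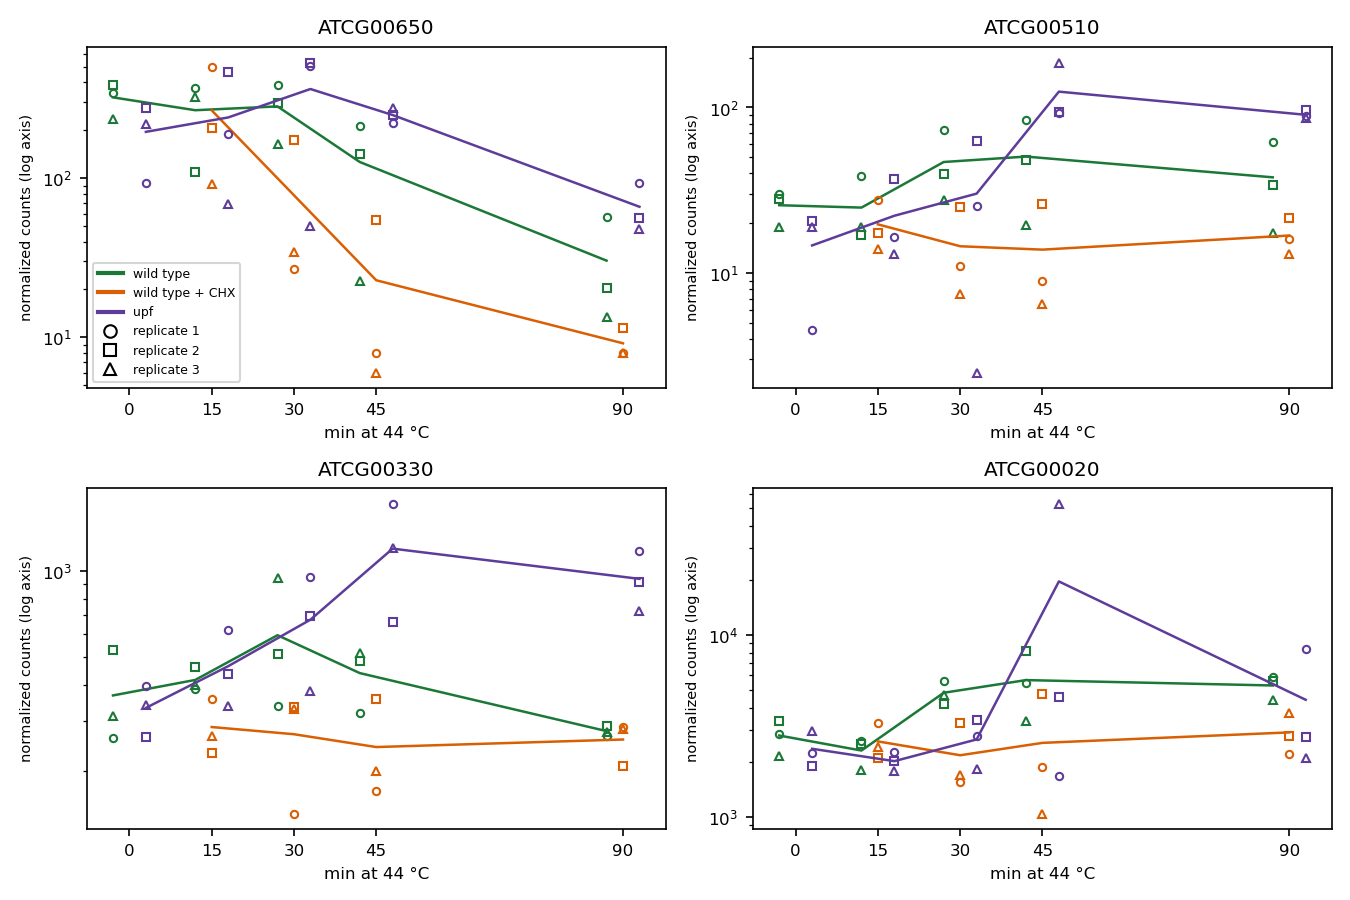
Normalized counts on a log axis against minutes at 44 °C for 4 loci named by identifier. Symbols are libraries (circle replicate 1, square replicate 2, triangle replicate 3), lines join group means of 3, and the genotypes and CHX are offset sideways for legibility. ATCG00650 is lowest late in the heat and with CHX, ATCG00510 and ATCG00330 are highest in upf at 45 and 90 min, and ATCG00020 has 1 library of upf at 45 min at 52951.

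Between the genotypes, rpl2 was the named plastid locus that stood higher in upf. Over the 5 times its log2 difference, upf against wild type, was 1.05 ± 0.18 (SE), a 2.06-fold higher level (adjusted p = 5.6e-06 in limma). At 0 min it had 19283.5, 10924 and 10269.5 normalized counts in upf and 9681, 10657.5 and 4981.5 in wild type, which overlapped. At 90 min it had 16516.5, 8258.5 and 8777.5 in upf and 3040.5, 2525 and 2179.5 in wild type, with no overlap. In all, 3 of 86 plastid loci were called higher over the 5 times, where 7.51% of all loci were called higher and 1.07% lower: both copies of rpl2, and ATCG00820, the identifier next to the first copy, with a log2 difference of 1.04 ± 0.23 (SE). None was called lower by limma. In limma 9 of the 86 had an adjusted p under 0.05, and 3 of these 9 were lower in upf, under the 2-fold limit. At an unadjusted p under 0.05 there were 4 lower loci. The calls of rpl2 and ATCG00820 lie close to the 2-fold limit. That of rpl2 ends, with log2 differences down to 0.96, without wild-type library 3 of 0 or 15 min or upf library 1 of 0, 15, 30 or 90 min. That of ATCG00820 ends without wild-type library 3 of 0 or 45 min, upf library 1 of 15, 30 or 90 min, or upf library 2 of 30 min (down to 0.93). The other named loci differed by -0.29 (ndhJ) to -0.11 (clpP), and none was called. At 0 min limma called 0 plastid loci, where 5.99% of all loci were called higher and 1.48% lower. Only 4 had an unadjusted p under 0.05, all lower in upf, and the authors' deposited table calls the same number lower. The estimated log2 difference at 0 min was below 0 for 80 of the 86 loci, with a median of -0.56 against -0.03 for all loci.

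**Figure D4:**
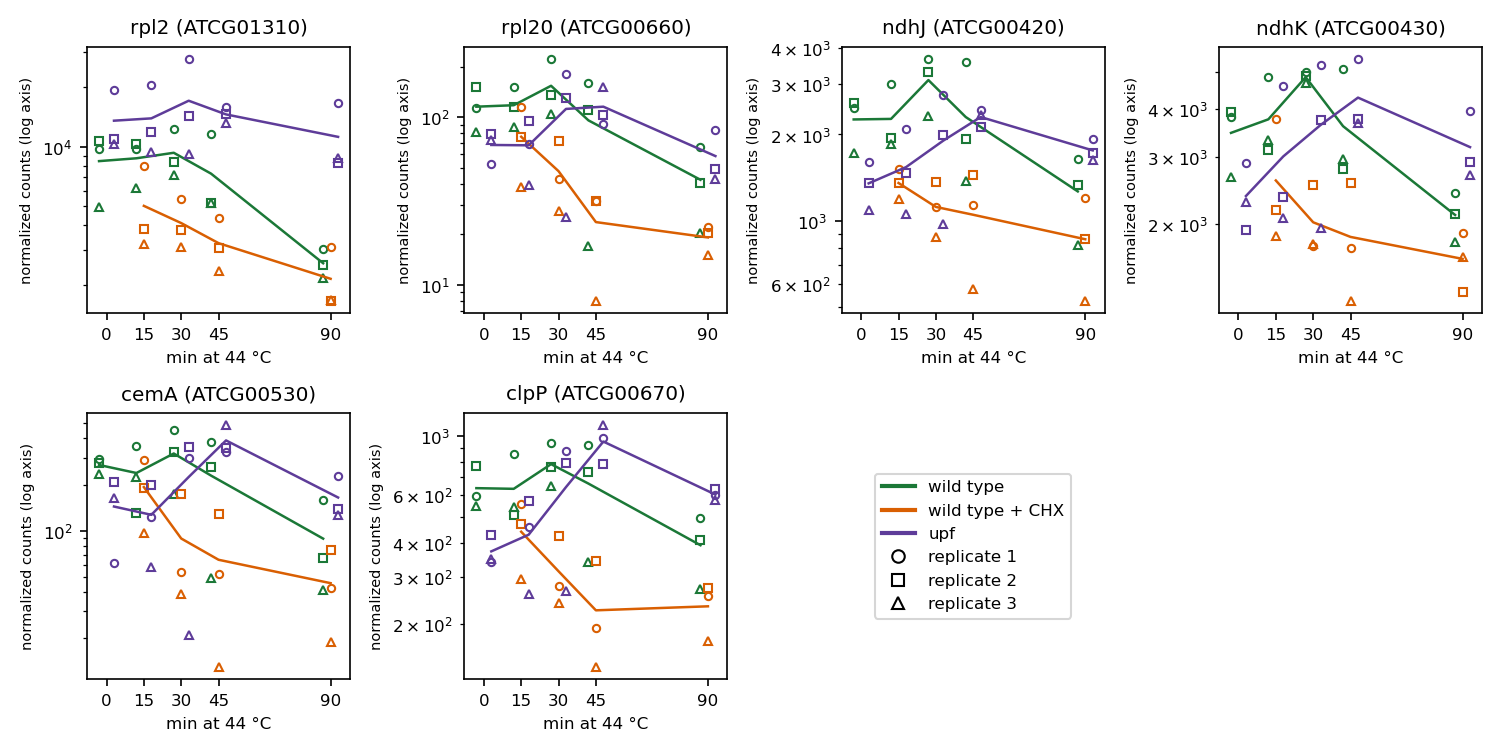
Normalized counts on a log axis against minutes at 44 °C for the 6 named plastid loci. Symbols are libraries (circle replicate 1, square replicate 2, triangle replicate 3) and lines join group means of 3 in wild type, wild type with CHX and upf, offset sideways. The rpl2 values are highest in upf, and from 30 min on the CHX line lies lowest in every panel.

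With CHX, plastid RNA of heated seedlings was lower at nearly every locus, with median log2 differences of -0.55 at 15 min, -1.51 at 30 min, -1.64 at 45 min and -0.77 at 90 min. Over the 4 times 57 of 86 loci were called lower with CHX and 0 higher, where 1.38% of all loci were called lower and 9.35% higher. No plastid locus had an unadjusted p under 0.05 and a higher level. The adjusted p was under 0.05 for 84 of the 86, all lower, and the 2-fold limit sets the lower count of 57. The median log2 difference was -1.12, against 0.05 for all loci. Mitochondrial loci had a median of -0.47 over the 4 times, with 0 of 107 called lower and 1 higher. At 30 and 45 min 19 and 18 mitochondrial loci were called lower and 0 and 1 higher, with medians of -0.79 and -0.78. At 15 and 90 min limma called 0 plastid loci, where 4.24% and 13.5% of all loci were called higher and 0.492% and 2.77% lower. There were 8 and 7 loci with an unadjusted p under 0.05, all lower, and the authors' deposited table calls 2 and 25 lower. At 30 min 57 were called lower and at 45 min 64, where 2.44% and 2.48% of all loci were called lower and 12.6% and 12.1% higher. None was called higher at either time, nor had an unadjusted p under 0.05 with a higher level, and the authors' deposited table calls 84 and 82 of the 88 lower. With libraries set to equal totals 12 were called lower at 30 min and 25 at 45 min. With equal plastid totals, which removes a shift common to the plastid loci by construction, there were 0 and 6. The 30 and 45 min comparisons were added after the authors' deposited table had been seen. Single libraries moved these counts. At 30 min the count was 18 without library 1 of heat alone, 37 without library 2 of heat alone, 32 without library 1 of CHX and 20 without library 3 of CHX. At 45 min it was 20 without library 1 and 41 without library 2 of heat alone, and 12 without library 3 of CHX.

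The CHX difference was spread over the named loci. For clpP the normalized counts at 30 min were 938, 764.5 and 648.5 in heat alone and 278, 425 and 240 with CHX, without overlap, and the log2 difference over the 4 times was -1.04 ± 0.19 (SE). For ndhJ they were 3665, 3304.5 and 2319.5 in heat alone and 1113, 1361.5 and 876.5 with CHX at 30 min, also without overlap. Its difference over the 4 times, -0.97 ± 0.18 (SE), was just under 2-fold. For rpl2 at 30 min they were 12305.5, 8385.5 and 7204 in heat alone and 5427.5, 3804 and 3109 with CHX, again apart. Over the 4 times the log2 difference was -1.29 for cemA and -1.27 for rpl20, both called lower, and -0.87 for rpl2 and -0.80 for ndhK, which were not. Medians of the stretches ran from -0.93 between cemA and rpl20 to -1.19 after rpl2, and that from clpP to rpl2 was -1.13 with 12 of 15 called. ATCG00650 had 214, 143 and 22.5 in heat alone and 8, 54.5 and 6 with CHX at 45 min, and its log2 difference over the 4 times was -1.59 ± 0.43 (SE). With libraries set to equal totals, which moved the median of all loci to 0.33, 17 loci were called lower over the 4 times, and with equal plastid totals 0 lower and 1 higher. The summed level of the 8 shoot markers at 30 min was 821220 to 876530 in heat alone and 534030 to 656890 with CHX, and none of the 8 was called over the 4 times (median log2 difference -0.37). Their part in the plastid result was not tested.

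Nuclear genes that serve the plastid genome were taken from 3 lists, in wild type at 90 min first, where 23.6% of all loci were called lower and 12.2% higher. Of 18 tested genes of plastid transcription 2 were called lower, PTAC2 and MURE (log2 change -1.23), which belong to the complex around the plastid-encoded polymerase, and none higher (median log2 change -0.28). PGR3, an RNA-binding protein that stabilizes plastid transcripts, was the 1 of 12 tested genes of plastid RNA processing and decay called lower (-1.95), with a median of -0.31. For 24 nuclear-encoded subunits of the photosynthetic complexes limma called none, and their median was 0.42. In upf at 90 min 3 of the 12 genes of plastid RNA processing and decay were called lower, PGR3 (-1.73), HCF152 (-1.14) and CRR2 (-1.08), a share near the 20.1% of all loci called lower. Over the 4 CHX times no gene of the 3 lists was called, where 9.35% of all loci were higher and 1.38% lower (medians -0.07, 0.02 and -0.44). Every subunit of the photosynthetic complexes was lower with CHX, but under the 2-fold limit. Their log2 differences ran from -0.65 for PSAL (adjusted p = 7.6e-06 in limma) to -0.06 for RBCS1B (adjusted p = 0.697). Between the genotypes 1 gene was called higher and 1 lower, where 7.51% and 1.07% of all loci were. SIG4, a sigma factor of the plastid-encoded polymerase, was higher in upf by 1.31 and PSAF, a photosystem I subunit, was lower, with a log2 difference of -1.11, both over the 5 times. As with CHX, each of the 24 subunits was lower in upf, all but PSAF under the 2-fold limit. Their median log2 difference was -0.48, against -0.05 for all loci, and the smallest was -0.07 for RBCS1A (adjusted p = 0.587 in limma).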

How the data were processed

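Libraries were put into groups from their labels. Per the labels' protocols, stranded mRNA libraries were sequenced as 150-cycle paired ends. The submitters' processing notes name kallisto, sleuth and TAIR10, with no versions or roles. The main table holds a score that the authors deposited as normalized counts, whole numbers per transcript and lane. They were taken for counts scaled by 1 factor per column. That factor, the step between low values before rounding, was estimated at 0.497 to 2.44 and was over 1 in 36 of 84 columns. Depth rests on these estimates. The authors' deposited tables of log2 fold changes and p-values per transcript were used as given. The 2 lanes of a library were averaged (r of at least 0.981 over plastid loci), transcripts summed to loci, and log2(value + 1) tested with limma 3.58.1 (R 4.3.3), which understates changes of low loci. One mean per group over 42 libraries, a variance trend and Benjamini-Hochberg adjustment over 20747 loci were used, with 16 comparisons. The procedure was tested on simulated data. Other steps used Python 3.11.15 and pandas 2.3.3.

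Members and lists were chosen with earlier results of these data known. Named loci are 6 with a gene name, the most extreme changes per comparison, and called members of nuclear lists (18 of 20, 12 of 14 and 24 tested). Members whose symbol did not match that of their locus in the reference were dropped. These were RPOTp and RPOTmp from plastid transcription, and RNJ and CRP1 from plastid RNA processing and decay. The planned ranking per length, functional classes and operons could not be applied, since few identifiers could be paired with a gene name. For the same reason at most 2 unnamed identifiers per direction are printed for the size of their change in a comparison. Alternatives were other pseudocounts, filters, scalings, single lanes, a replicate block and leaving out each library. One other locus is not reported here.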

Additional observations from a re-analysis of the deposited data

Results flagged for a closer look

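The heat response of ATCG00330 at 90 min differed between the genotypes by 1.83 on the log2 scale in the test of the difference itself. It rose in upf by 1.48 ± 0.37 (SE) and changed by -0.34 ± 0.37 (SE) in wild type. It was 1 of 86 plastid loci called, where 1.9% of all loci were called higher, so the plastid count was not above the general share. The call rests on single libraries, as given above, and with equal plastid totals the difference was 0.94 (adjusted p = 0.375 in limma).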

How the results depend on the processing

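Counts of plastid loci called moved with scaling, the replicate block and single libraries. With libraries set to equal totals, the loci called lower in wild type were 19 at 45 min and 68 at 90 min, those in upf were 2 higher and 2 lower at 45 min and 1 higher and 23 lower at 90 min, and those lower with CHX were 12 at 30 min, 25 at 45 min and 17 over the 4 times. With equal plastid totals, wild type had 1 lower at 45 min and 7 higher and 20 lower at 90 min. In upf there were 6 higher and 3 lower at 45 min and 12 higher and 10 lower at 90 min. CHX had 1 higher and 0 lower at 30 min, 6 lower at 45 min, and 1 higher and 0 lower over the 4 times. With that scaling upf against wild type over the 5 times and the difference of responses each had 0 higher, and some log2 changes turned sign: in wild type at 90 min ATCG00420 (ndhJ) 0.077, ATCG00430 (ndhK) 0.24, ATCG00670 (clpP) 0.21 and ATCG00480 0.12, and with CHX ndhJ 0.047, ndhK 0.22 and ATCG01310 (rpl2) 0.15. That scaling sets the plastid sum equal by construction. With median-of-ratios scaling and also in the first lane alone there were 1 higher in wild type at 30 min, 2 higher in upf at 30 min and 1 lower with CHX at 90 min. The first lane alone and the fit without a filter gave 0 for the difference of responses. The second lane alone gave 1 lower in wild type at 45 min, 5 higher in upf at 90 min and 1 lower with CHX at 90 min. The cause was not tested. Without heat loci in the denominator the plastid share of upf at 45 min was 1.27%.

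The labels do not tie the replicate numbers to a shared batch. Over all loci, correlations of same-numbered deviations ran from -0.26 to 0.42, and in 1 of 17 pairs of groups all were over 0.1, so the block was not made the main fit, although the plastid share went with the number. With the replicate block 7 loci were lower in wild type at 45 min, 12 in upf at 90 min, 2 in upf against wild type at 0 min, 1 with CHX at 15 min and 6 at 90 min, and 11 were higher in the difference of responses.

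Leaving out 1 library at a time gave ranges of 0 to 1 higher in wild type at 30 min, 0 to 2 higher and 0 to 8 lower at 45 min, and 28 to 49 lower at 90 min. In upf they were 0 to 7 higher at 30 min, 6 to 25 higher at 45 min and 4 to 9 higher at 90 min; without upf library 3 of 45 min, left out for its ATCG00020 after its values were seen, the count was 6. The range was 0 to 3 for upf against wild type over the 5 times, 0 to 1 for the difference of responses, and with CHX 0 to 3, 18 to 56, 12 to 77 and 0 to 6 lower at 15, 30, 45 and 90 min and 40 to 70 over the 4 times. Other pseudocounts kept every count within 1.5 times. Depth limits low loci most: ATCG00510 had 4.5 to 20.5 normalized counts in upf at 0 min.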
